A study of Mus musculus with 6 samples.

Results

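Interferon-stimulated genes are the genes that cells switch on when they sense interferon, and 43 of them were followed here library by library in mouse ear skin. They were chosen by symbol, and 41 of the 43 were among the 18422 genes of the table. Mx1 and Mx2 were not analysed here. The list held 31 genes best known as targets of type I interferon, 7 GTPases best known as targets of interferon gamma and 3 genes of antigen processing that are also induced by interferon gamma.

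RNA was sequenced from ear skin of mice at postnatal day 21, with 3 control samples (genotype Control) and 3 samples with deletion of Vegfr2 in endothelial cells (genotype Vegfr2ecko, ecko below). Both groups carried the same tamoxifen treatment, the drug that triggers the deletion, and the controls were littermates per the series' design text. That text describes schedules that begin at postnatal day 1 or day 10, and the sources used here do not give the schedule of these mice, the Cre driver or the strain. Vegfr2, whose gene symbol is Kdr, is the main receptor of endothelial cells for VEGF-A. Nothing in the labels names the animal behind each library, so p-values measure the spread between these samples.

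Type I interferons (interferon alpha and beta) bind the receptor Ifnar1/Ifnar2 and activate a complex that includes Stat2 and Irf9, which binds the interferon-stimulated response element in the promoters of antiviral genes. Interferon gamma, made mostly by T cells and natural killer cells, binds Ifngr1/Ifngr2 and acts through the gamma-activated site, inducing Irf1, the guanylate-binding proteins, the immunity-related GTPases and the immunoproteasome. The division is not strict, since type I interferon also induces many of the GTPases. In skin, keratinocytes, endothelial cells, fibroblasts and leukocytes can all respond to either kind.

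Both binding motifs were searched in the promoters, because they define how the 2 groups of genes are known to be induced. RefSeq promoters of GRCm38.p6, from 250 bases before the gene's start to 50 after it, were found for 32 of the 41 genes. The core of the response element was taken as GAAA, any 2 bases and GAAA again, on either strand (TTTC in the opposite reading), and the core of the gamma-activated site as TTCNNNGAA, which reads the same on both strands. The motifs can overlap. Some genes have more than 1 promoter, and a gene was counted if any of its promoters matched. The response element core was present for 18 of the 32 genes (56.2%), against 3.99% of the 27025 genes in the reference table. The gamma-activated site core was present for 9 of the 32 (28.1%), against 9.55% of all. By role, the response element core was present for 6 of the 6 GTPase genes found, though a further Gbp3 promoter had no match. It was present for 8 of 15 antiviral effectors, 3 of 5 sensors and transcription factors, 1 of 3 TRIM and PARP genes and 0 of 3 antigen-processing genes. The gamma-activated site core was present for 3 of the 6 GTPase genes, 5 of the 15 effectors and 1 of the 3 antigen-processing genes, Psmb8. A match is a description of letters and was not tested as a binding site.

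The 6 stretches that follow are the 150 bases before the start of 3 GTPase genes, 2 antiviral effectors and 1 antigen-processing gene whose levels are described below. They are written 5′ to 3′ on the gene's strand, with capitals on the motif matches. Their positions in GRCm38.p6 are chr3:142620513-142620662 for Gbp2 (plus strand), chr11:58199406-58199555 for Igtp (plus strand), chr11:58214827-58214976 for Irgm2 (plus strand), chr4:156200819-156200968 for Isg15 (minus strand), chr19:34640739-34640888 for Ifit1 (plus strand) and chr17:34187406-34187555 for Tap1 (plus strand).
Gbp2: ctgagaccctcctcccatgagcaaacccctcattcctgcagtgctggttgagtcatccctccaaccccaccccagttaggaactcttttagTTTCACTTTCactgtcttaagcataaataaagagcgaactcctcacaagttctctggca
Igtp: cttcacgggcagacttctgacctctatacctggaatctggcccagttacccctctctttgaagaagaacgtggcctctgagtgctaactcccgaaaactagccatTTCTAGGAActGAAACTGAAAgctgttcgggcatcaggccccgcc
Irgm2: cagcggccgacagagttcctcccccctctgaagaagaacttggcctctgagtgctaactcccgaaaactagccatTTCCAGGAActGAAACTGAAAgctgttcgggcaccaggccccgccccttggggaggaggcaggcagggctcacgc
Isg15: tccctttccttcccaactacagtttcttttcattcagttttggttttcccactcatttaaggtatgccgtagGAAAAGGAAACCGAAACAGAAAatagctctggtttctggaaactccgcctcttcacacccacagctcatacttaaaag
Ifit1: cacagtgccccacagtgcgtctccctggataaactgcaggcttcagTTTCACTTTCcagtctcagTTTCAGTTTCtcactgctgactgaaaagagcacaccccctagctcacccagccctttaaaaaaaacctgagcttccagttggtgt
Tap1: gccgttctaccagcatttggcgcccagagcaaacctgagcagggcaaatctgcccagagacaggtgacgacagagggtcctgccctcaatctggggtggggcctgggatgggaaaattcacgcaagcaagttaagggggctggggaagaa
Gbp2 has 1 response element core, which begins 59 bases before the start. Igtp and Irgm2 have the same arrangement, a gamma-activated site core followed 2 bases later by a response element core. Within the 150 bases printed for each, the longest run that these 2 genes share is 38 bases. Longer shared runs extend outside the printed stretches. Isg15 has 3 overlapping response element cores that begin between 78 and 66 bases before the start, and Ifit1 has 2 that begin 104 and 85 bases before it. Tap1 has no match in this window, and 75 of its 150 bases are shared with the promoter stretch of Psmb9, which is read in the opposite direction.

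Kdr itself had 27.4, 29.1 and 33.7 CPM (counts scaled by the library's total, the unit of level used throughout) in controls 1 to 3 and 3.36, 2.05 and 2.35 CPM in ecko 1 to 3. All 3 ecko libraries were far below the controls (log2 fold change -3.54, SE 0.17, edgeR adjusted p = 2.7e-05). Libraries held between 17255416 and 18054696 expected counts, and 4 Y-linked genes placed controls 1 and 2 and ecko 1 and 2 as male and the third library of each group as female. Ecko 1 stood apart from the other libraries in the interferon-stimulated genes, and results that rest on it are given with and without it. CPM values compare 1 gene between libraries and do not compare genes, whose lengths differ.

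No interferon-stimulated gene passed the test between genotypes. Of the 41 genes tested, edgeR's quasi-likelihood test with Benjamini-Hochberg adjustment over all 14866 genes called 0 higher and 0 lower in ecko, while 0.686% of all genes were called higher and 1.08% lower. At an unadjusted p under 0.05, 11 of the 41 were higher, against 7.41% of all genes, and 0 were lower, against 7.95%. Limma-voom also called 0 of the 41. DESeq2 called 1, Ifit2. All 3 ecko libraries were above all 3 controls for 7 of the 41 (Ifit2, Oas3, Parp9, Dtx3l, Igtp, Psmb8 and Psmb9), and 10.2% of all genes had that arrangement. None of the 41 had all ecko libraries below all controls, an arrangement seen in 10.8% of all genes.

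The 41 genes were high together in 1 library. Ecko 1 had the highest level of the 6 libraries for 39 of the 41, whereas it was the highest for 15.6% of all genes tested. The exceptions were Ifi35 and Ifi27l2a, which were highest in control 2. For 14 of the 41 the level in ecko 1 was at least 2 times the highest of the other 5 libraries, and 0.323% of all genes, 48 in number, reached that mark in ecko 1. The same count was 0 of the 41 in each of the other 5 libraries, where the shares of all genes were 0.00673% in control 1, 0.0202% in control 2, 0.00673% in control 3, 0.0336% in ecko 2 and 0% in ecko 3. Among 14319 tested genes with a mean of at least 1 CPM, ranked by the ratio of ecko 1 to the highest other library, the 41 supplied 3 of the top 10, 7 of the top 20 and 25 of the top 100.

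Against the mean of the 3 controls, the median level over the 41 genes was 1.86 times in ecko 1, 0.97 times in ecko 2 and 1.00 times in ecko 3. The summed level of the 41 was 497 CPM, 560 CPM and 556 CPM in controls 1 to 3, 1098 CPM in ecko 1, 541 CPM in ecko 2 and 549 CPM in ecko 3. Ecko 2 and ecko 3 therefore lay within the range of the controls in the sum, and ecko 1 alone stood outside it.

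**Figure D1:**
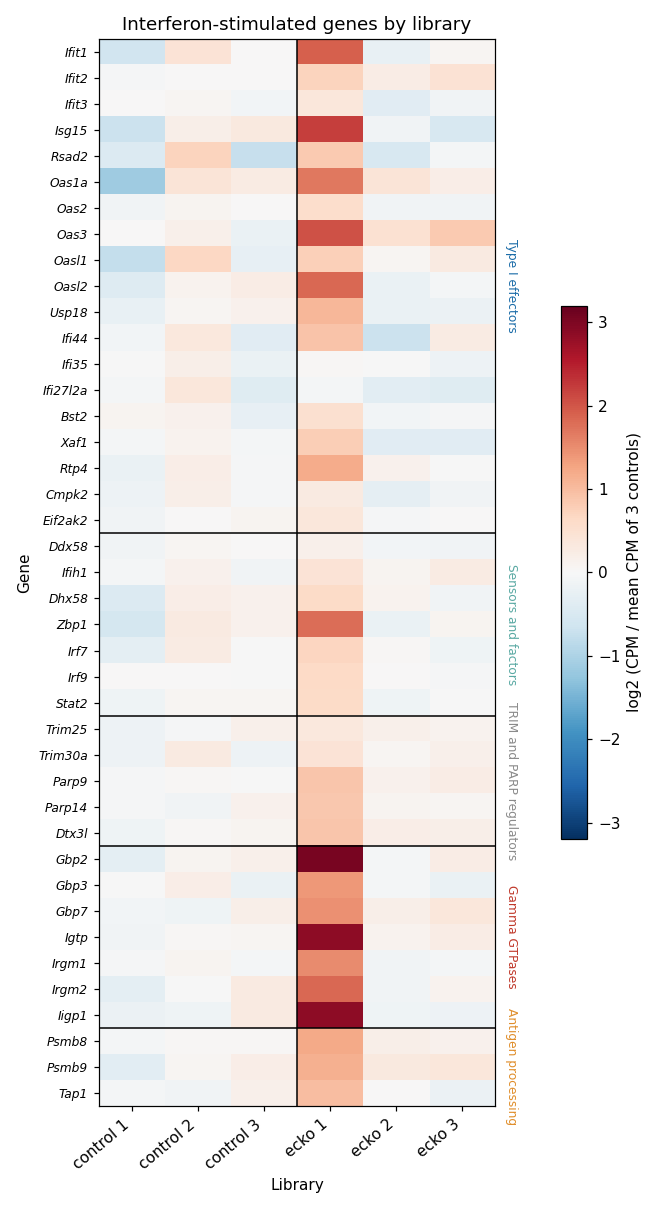
Level of each of the 41 genes (rows, by role) in each of the 6 libraries (columns), as the log2 ratio of its CPM to the mean CPM of the 3 controls, on a colour scale from blue (lower) to red (higher). The ecko 1 column is red for nearly every gene, and darkest for Gbp2, Igtp and Iigp1, while ecko 2 and ecko 3 look like the controls.

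Of the 5 roles, the GTPases had the largest median in ecko 1. They comprise the guanylate-binding proteins Gbp2, Gbp3 and Gbp7, which coat and break open the compartments of intracellular microbes, and the immunity-related GTPases Igtp, Irgm1, Irgm2 and Iigp1, which act on vacuoles of parasites and bacteria. All 7 were at least 2 times higher in ecko 1 than in any other library. Their median was 3.56 times the control mean in ecko 1, 0.96 times in ecko 2 and 1.08 times in ecko 3.

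Gbp2 had 9.01, 11.9 and 12.4 CPM in controls 1 to 3 and 91.5, 10.6 and 13.2 CPM in ecko 1 to 3. Ecko 1 was 6.93 times the next library, and ecko 2 lay inside the range of the controls. The log2 fold change between genotypes was 1.79 (SE 0.71, edgeR adjusted p = 0.269), and 0.10 without ecko 1.

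Igtp, which helps to direct other GTPases to the right vacuoles, had 6.24, 7.0 and 7.09 CPM in the controls and 49.4, 7.36 and 8.05 CPM in ecko 1 to 3. The groups did not overlap, but ecko 2 was above the highest control by less than 1 CPM. Its log2 fold change was 1.67 (SE 0.65, edgeR adjusted p = 0.262), and 0.18 without ecko 1.

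Iigp1, an effector that loads onto parasite vacuoles, had 8.37, 8.65 and 11.7 CPM in the controls and 70.1, 8.63 and 8.55 CPM in ecko 1 to 3. Its fold change of 1.60 on the log2 scale (SE 0.72, edgeR adjusted p = 0.329) became -0.16 without ecko 1. Here ecko 2 and ecko 3 were both within the range of the controls.

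Irgm2, whose promoter resembles that of Igtp near the motifs, had 11.4, 14.0 and 17.3 CPM in the controls and 50.7, 13.2 and 15.3 CPM in ecko 1 to 3. Irgm1, like Irgm2 a regulatory GTPase that protects the host's own membranes, had 15.4, 16.7 and 15.3 CPM in the controls and 44.8, 14.6 and 15.2 CPM in ecko 1 to 3. Gbp7 had 9.93, 9.56 and 12.1 CPM against 29.2, 11.9 and 13.4 CPM. In all 3 genes ecko 1 was more than 2 times every other library, and log2 fold changes of 0.89, 0.65 and 0.78 became 0.00, -0.09 and 0.27 without it. Gbp3, at 2.60 times the control mean in ecko 1, was 0.96 and 0.86 times it in ecko 2 and ecko 3.

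Counting error is small beside these gaps. Exact Poisson 95% intervals for ecko 1 were 87.0 to 96.1 CPM for Gbp2, 46.16 to 52.85 CPM for Igtp and 66.2 to 74.2 CPM for Iigp1. They cover counting error only, and not the difference between mice, which 1 library cannot give.

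Several of these genes lie side by side. Gbp2, Gbp3 and Gbp7 lie within chr3:142530336-142638008, and Igtp and Irgm2 within chr11:58199556-58222783. The counts of these 7 GTPases were whole numbers in every library, whereas Ifit3, Oas1a, Oas3, Eif2ak2, Trim30a, Parp9 and Dtx3l had fractional estimates and are less certain.

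The antigen-processing genes were higher in ecko 1 by a smaller amount. Psmb8 and Psmb9 are inducible catalytic subunits of the immunoproteasome, which cuts proteins into peptides suited to MHC class I, and Tap1 is part of the pump that carries those peptides into the endoplasmic reticulum. The 3 genes lie together within chr17:34182030-34201454. Their median was 2.19 times the control mean in ecko 1, 1.13 times in ecko 2 and 1.09 times in ecko 3.

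Psmb8 had 15.6, 16.7 and 16.6 CPM in the controls and 37.5, 18.5 and 17.8 CPM in ecko 1 to 3. Psmb9 had 4.21, 5.58 and 6.24 CPM in the controls and 11.7, 6.64 and 6.82 CPM in ecko 1 to 3. In both genes every ecko library lay above every control, with log2 fold changes of 0.59 (SE 0.25, edgeR adjusted p = 0.301) and 0.65 (SE 0.24, edgeR adjusted p = 0.234) that became 0.15 and 0.33 without ecko 1. Tap1 had 37.6, 36.0 and 43.5 CPM in the controls and 77.7, 39.6 and 34.1 CPM in ecko 1 to 3, so that ecko 3 was below every control and ecko 1 above (log2 fold change 0.37, SE 0.26, edgeR adjusted p = 0.556). Without ecko 1 its log2 fold change was -0.09.

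The antiviral effectors of the type I response were mixed. Of 19, 5 were at least 2 times higher in ecko 1 than in any other library (Ifit1, Isg15, Oas1a, Oas3 and Oasl2). Their median over all 19 was 1.72 times the control mean in ecko 1, 0.92 times in ecko 2 and 0.96 times in ecko 3, and single genes in ecko 1 ranged from 0.95 to 4.60 times.

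Isg15, a ubiquitin-like protein that is attached to other proteins during infection, had 1.44, 2.62 and 2.89 CPM in the controls and 10.7, 2.16 and 1.62 CPM in ecko 1 to 3. Its level in ecko 1 was 3.69 times the next library. The other ecko libraries were inside the range of the controls, and the log2 fold change of 1.04 (SE 0.64, edgeR adjusted p = 0.488) became -0.30 without ecko 1.

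Ifit1, which binds RNA that lacks the host's cap methylation, had 1.33, 2.73 and 2.04 CPM in the controls and 7.71, 1.72 and 2.12 CPM in ecko 1 to 3. Its neighbour Ifit2, on the same stretch of chromosome 19, behaved differently, at 13.8, 14.4 and 14.3 CPM in the controls and 23.1, 16.8 and 19.4 CPM in ecko 1 to 3. Ecko 1 was only 1.19 times the next library for Ifit2, and all 3 ecko libraries were above all controls. Its log2 fold change was 0.48 (SE 0.12, edgeR adjusted p = 0.0951) and stayed at 0.35 without ecko 1. The DESeq2 adjusted p was 0.0372, and over all alternatives it ranged from 0.0372 to 0.252. Ifit3, the third of the group, had a log2 fold change of 0.00.

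The oligoadenylate synthetases make the messenger that activates the antiviral nuclease RNase L. Oas3 had 0.92, 1.02 and 0.79 CPM in the controls and 3.77, 1.27 and 1.62 CPM in ecko 1 to 3. The groups did not overlap, and the log2 fold change of 1.27 (SE 0.42, edgeR adjusted p = 0.191) fell to 0.66 without ecko 1. Oas1a had 1.04, 3.07 and 2.78 CPM in the controls and 7.42, 3.04 and 2.68 CPM in ecko 1 to 3, and Oasl2, a relative of the family, had 4.50, 6.55 and 7.09 CPM against 21.5, 5.20 and 5.81 CPM. For Oas1a and Oasl2 the high library was ecko 1 and the low one control 1. Oas2 had a log2 fold change of 0.14, and -0.12 without ecko 1.

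Eif2ak2 (PKR), the kinase that stops translation on sensing double-stranded RNA, had 31.9, 34.8 and 36.3 CPM in the controls and 44.3, 33.4 and 34.8 CPM in ecko 1 to 3. Ifi35 had 16.5, 19.1 and 14.3 CPM in the controls and 17.1, 16.6 and 14.9 CPM in ecko 1 to 3, and Ifi27l2a had 13.5, 17.9 and 10.6 CPM against 13.3, 11.1 and 10.7 CPM. The highest library of these 2 genes was control 2, and their ecko libraries lay within the range of the controls. Beside them, Usp18, which removes Isg15 from proteins and dampens the receptor, was 2.08 times the control mean in ecko 1, Rtp4 2.29 times, Xaf1 1.72 times, Bst2 (tetherin) 1.42 times and Cmpk2 1.23 times. The remaining effectors, Ifit3, Rsad2, Oas2, Oasl1 and Ifi44, were between 1.295 and 1.896 times the control mean in ecko 1.

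The sensors and transcription factors of the pathway were higher in ecko 1 by a smaller factor, with 1 exception. Their median over 7 genes was 1.53 times the control mean in ecko 1, 1.00 times in ecko 2 and 0.98 times in ecko 3. The exception was Zbp1, a sensor of left-handed nucleic acid that can trigger cell death, at 1.39, 2.50 and 2.27 CPM in the controls and 7.13, 1.77 and 2.18 CPM in ecko 1 to 3.

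Irf9, the DNA-binding part of the type I complex, was even across 5 libraries, at 37.1, 37.3 and 36.4 CPM in the controls and 57.8, 37.0 and 36.3 CPM in ecko 1 to 3. Its partner Stat2 had 29.2, 33.5 and 33.7 CPM in the controls and 49.1, 29.3 and 32.1 CPM in ecko 1 to 3. Irf7, which amplifies interferon alpha production, had 10.5, 15.8 and 13.1 CPM against 21.1, 13.4 and 12.0 CPM. In all 3 factors ecko 1 was the only library above the highest control, and the log2 fold changes of 0.24, 0.20 and 0.24 became -0.01, -0.07 and -0.04 without it.

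The RNA sensors were below 2 times the control mean in every library. Ddx58 (RIG-I) had 19.6, 22.1 and 21.4 CPM in the controls and 23.5, 19.7 and 19.4 CPM in ecko 1 to 3. Ifih1 (MDA5) had 12.1, 13.9 and 11.6 CPM in the controls and 17.03, 13.3 and 14.9 CPM in ecko 1 to 3, a log2 fold change of 0.27 (SE 0.12, edgeR adjusted p = 0.324). Dhx58 (LGP2), a regulator of both, had 1.96, 3.13 and 2.95 CPM in the controls and 4.11, 2.88 and 2.46 CPM in ecko 1 to 3, with ecko 1 highest and control 1 lowest.

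The TRIM and PARP regulators were higher in ecko 1 in a narrow range, from 1.27 to 1.86 times the control mean, with 0 of 5 at the mark of 2 times the next library. Parp9 and Dtx3l, which act as a pair in ubiquitin transfer, had 19.2, 20.3 and 19.5 CPM and 13.0, 14.6 and 15.2 CPM in the controls. In ecko 1 to 3 Parp9 had 36.5, 21.8 and 23.1 CPM and Dtx3l 26.5, 16.5 and 16.2 CPM. Both had every ecko library above every control, with log2 fold changes of 0.46 and 0.47 that fell to 0.19 and 0.20 without ecko 1.

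Parp14, next to them on chromosome 16, had 19.1, 18.04 and 21.7 CPM in the controls and 35.4, 20.7 and 20.5 CPM in ecko 1 to 3. Trim25, the ubiquitin ligase that activates RIG-I, had 63.5, 68.6 and 79.5 CPM in the controls and 89.4, 78.7 and 76.8 CPM in ecko 1 to 3. Trim30a had 6.93, 9.50 and 6.97 CPM against 10.6, 8.13 and 8.78 CPM. For these 3 genes the ecko 2 and ecko 3 values lay within the range of the controls. Parp9 and Dtx3l overlap on chromosome 16, and counts that overlap cannot be assigned with certainty without strand.

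**Figure D2:**
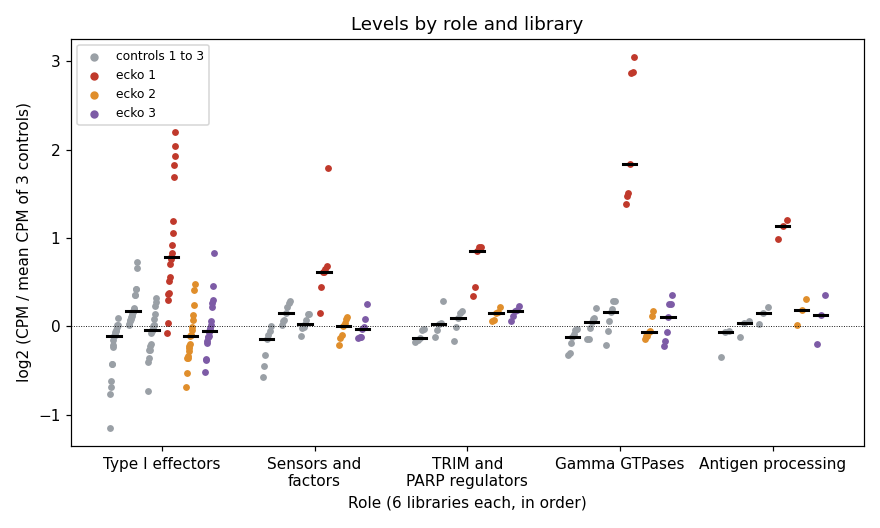
Each point is 1 gene in 1 library, as the log2 ratio of its CPM to the mean CPM of the 3 controls, for 5 roles with the 6 libraries of each in the order control 1 to 3 and ecko 1 to 3, and the black bar is the median over the genes. Ecko 1 (red) sits highest in every role, with medians of 3.56 times the control mean in the GTPases and 1.72 times in the type I effectors, and the other 5 libraries sit around 0 on this scale.

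Set side by side, the 31 type I targets had a median of 1.63 times the control mean in ecko 1, 0.97 times in ecko 2 and 0.99 times in ecko 3. The 10 GTPase and antigen-processing genes had medians of 2.80, 0.99 and 1.08 times. At least 2 times the next library in ecko 1 were 6 of the 31 and 8 of the 10. The ranges overlapped, since 8 of the 31 type I targets (Ifit1, Isg15, Oas1a, Oas3, Oasl2, Usp18, Rtp4 and Zbp1) were at or above the lowest ratio of the other set, 1.99 times for Tap1. With 1 library carrying the difference, the gap between the 2 sets was not tested.

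Between genotypes, the median log2 fold change was 0.24 over the type I targets and 0.72 over the GTPase and antigen-processing genes, against -0.00 over all genes tested. Without ecko 1 the medians were -0.06 and 0.05. Over all 41 genes, 37 had a fold change above 0 with all libraries and 17 without ecko 1. In that fit edgeR called 0 of the 41 in either direction, with 0.16% of 15001 genes called higher and 0.333% lower. At an unadjusted p under 0.05 it gave 1 higher, Ifit2, against 5.85% of all genes, and 1 lower, Xaf1, against 6.47%.

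**Figure D3:**
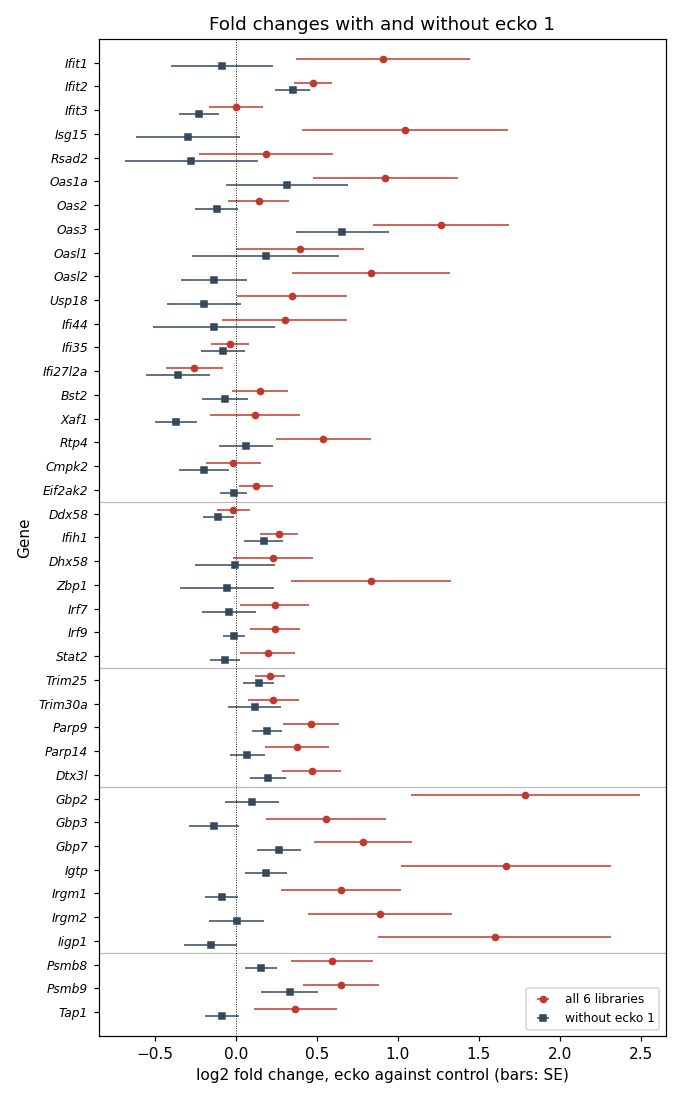
Log2 fold change of ecko against control for each of the 41 genes, with bars of 1 SE, from all 6 libraries (red circles) and without ecko 1 (dark squares). With all libraries Gbp2, Igtp and Iigp1 lie furthest right, at 1.79, 1.67 and 1.60, and without ecko 1 nearly all genes lie close to 0.

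Interferon messages themselves were barely counted. Of 21 interferon genes listed, 5 were in the table, 0 had enough reads for the test, and the rest were not analysed here. Interferon gamma (Ifng) had 0, 0 and 1 reads in the controls and 2, 0 and 0 reads in ecko 1 to 3. Ifnl2 had 1 read, in ecko 1, Ifna13 had 1 read, in ecko 2, and Ifnk had 0 reads in all. Ifnz had between 0 and 5.88 estimated reads per library. A count of 0 in a library allows up to 3 counts, or 0.166 to 0.174 CPM. At this depth a difference in an interferon message below about that level was not detectable.

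The receptors were present at steady levels. Ifnar1 had 63.7, 73.2 and 74.4 CPM in the controls and 69.9, 68.8 and 68.3 CPM in ecko 1 to 3, and Ifnar2 had 26.6, 29.0 and 31.9 CPM against 28.1, 30.5 and 26.9 CPM. Ifngr1 had 182, 196 and 158 CPM in the controls and 218, 200 and 209 CPM in ecko 1 to 3 (log2 fold change 0.23, SE 0.08, edgeR adjusted p = 0.225). Ifngr2, Ifnlr1 and Il10rb had log2 fold changes of -0.00, 0.07 and 0.11, and the receptor kinases Jak2 and Tyk2 0.12 and 0.09. Of the 9 receptors and kinases edgeR called 0, with 1 higher and 0 lower at an unadjusted p under 0.05 against 7.41% and 7.95% of all genes, and DESeq2 and limma-voom also called 0. In ecko 1 their median was 1.07 times the control mean, against 1.86 times for the 41 targets.

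Some of the factors downstream of the receptors were higher in ecko 1. Irf1, a transcription factor induced by interferon gamma, had 18.5, 18.6 and 19.6 CPM in the controls and 41.8, 20.5 and 18.5 CPM in ecko 1 to 3. It was just over 2 times the next library in ecko 1, and it was picked after its values were seen. Samhd1, which depletes nucleotides, had 46.1, 56.0 and 54.7 CPM in the controls and 109, 63.7 and 65.9 CPM in ecko 1 to 3. Irf8, a factor of myeloid cells, had 7.22, 8.25 and 8.33 CPM in the controls and 14.9, 9.68 and 9.90 CPM in ecko 1 to 3. Pias1, a brake on interferon signalling, was 45.7, 46.2 and 43.1 CPM against 50.2, 51.1 and 56.6 CPM, with ecko 3 highest. Of the 13 factors and brakes edgeR called 0, and neither DESeq2 nor limma-voom called any. At an unadjusted p under 0.05, 4 were higher and 0 lower, against 7.41% and 7.95% of all genes. Without ecko 1 the counts were 3 and 0, against 5.85% and 6.47%. The 12 genes of upstream sensing that were tested also had 0 calls by all 3 tools. With all libraries 1 of these 12 was higher and 0 lower at an unadjusted p under 0.05, against 7.41% and 7.95% of all genes. Their median was 1.04 times the control mean in ecko 1. Those with the smallest p were Tlr7, Irf5 and Myd88, with log2 fold changes of 0.34, 0.23 and 0.17.

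Further targets outside the 43 were read by library as well. The 17 tested genes of a list of other interferon gamma targets had a median of 4.07 times the control mean in ecko 1, 1.10 times in ecko 2 and 1.10 times in ecko 3, and 10 of them were at least 2 times higher in ecko 1 than in any other library, against 0.323% of all genes. The chemokine Cxcl9, which draws T cells that carry Cxcr3, had 0.92, 1.08 and 1.93 CPM in the controls and 24.3, 1.83 and 3.02 CPM in ecko 1 to 3. Gbp6 had 6.06, 7.29 and 7.65 CPM in the controls and 43.3, 7.42 and 9.28 CPM in ecko 1 to 3. Tgtp2, an immunity-related GTPase with a near-identical copy, had 3.06, 3.53 and 3.57 CPM against 24.9, 4.59 and 5.59 CPM. These 3 were picked after their values were seen, and 0 of the 17 were called higher by edgeR, with 6 higher and 1 lower at an unadjusted p under 0.05, against 7.41% and 7.95% of all genes. Without ecko 1 it was 3 higher and 1 lower, against 5.85% and 6.47%. Limma-voom called 0 higher, and DESeq2 called 1, the chemokine Cxcl10, which was too weakly counted for the edgeR test (0.12, 0.23 and 0.28 CPM in the controls and 4.40, 0.44 and 0.78 CPM in ecko 1 to 3).

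The only edgeR call in that list was lower. Nos2, the inducible nitric oxide synthase, had 1.73, 1.59 and 1.76 CPM in the controls and 0.75, 0.28 and 0.34 CPM in ecko 1 to 3, and fell by 1.89 on the log2 scale (SE 0.35, edgeR adjusted p = 0.0315). The groups did not overlap. The adjusted p was 0.0557 with the replicate number as a block, 0.158 in male libraries only, 0.0745 and 0.0756 without control 1 or control 2, and 0.128 and 0.122 without ecko 2 or ecko 3.

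The 38 tested genes of a list of other type I targets had a median of 1.27 times the control mean in ecko 1, 0.98 times in ecko 2 and 1.02 times in ecko 3, and 4 of them were at least 2 times the next library in ecko 1, against 0.323% of all genes. The median log2 fold change was 0.15 in this list and 0.95 in the list of other gamma targets. Only Slfn5, a nuclear Schlafen protein, was called by edgeR, and it fell by 0.37 on the log2 scale (SE 0.07, edgeR adjusted p = 0.0367), from 32.4, 36.4 and 34.0 CPM in the controls to 26.8, 25.5 and 27.1 CPM in ecko 1 to 3. That call was lost in male libraries only (adjusted p = 0.127), with the replicate block (0.0791) and without any single library other than control 1 (0.0521 to 0.159). At an unadjusted p under 0.05, 9 of the 38 were higher and 3 lower, against 7.41% and 7.95% of all genes, and 2 were higher and 2 lower without ecko 1, against 5.85% and 6.47%. DESeq2 also called Gm4951 higher and Ifi203 lower, with edgeR log2 fold changes of 1.72 and -0.56.

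Genes of antigen presentation were higher in ecko 1 by smaller factors. The 18 genes of MHC class I had a median of 1.27 times the control mean in ecko 1, 1.06 times in ecko 2 and 1.04 times in ecko 3, and the 10 of MHC class II 1.20, 1.11 and 1.06 times. B2m, the shared light chain of MHC class I, had 370, 424 and 398 CPM in the controls and 578, 460 and 487 CPM in ecko 1 to 3 (log2 fold change 0.36, SE 0.09, edgeR adjusted p = 0.112). Nlrc5, the activator of MHC class I genes, had 23.3, 27.6 and 28.5 CPM in the controls and 50.5, 30.6 and 30.1 CPM in ecko 1 to 3, and was picked after its values were seen. H2-Q6 and H2-Q4, other class I chains, had log2 fold changes of 0.54 and 0.34, and 0.41 and 0.19 without ecko 1. The class II genes H2-DMb2, H2-Oa and Ctss had 0.46, 1.32 and 0.39, and 0.43, 1.27 and 0.34 without ecko 1. H2-Oa was highest in ecko 3 and weakly counted, at 7, 5 and 6 reads in the controls and 16, 13 and 17 reads in ecko 1 to 3. With every control below the filter's minimum count of 10, H2-Oa entered the edgeR test only through the ecko libraries. Of both lists edgeR and limma-voom called 0, and DESeq2 called 2 in class I, H2-Q6 and B2m. At an unadjusted p under 0.05, 7 of the 18 and 3 of the 10 were higher and 0 were lower, against 7.41% and 7.95% of all genes. Without ecko 1, 3 of the 18 and 2 of the 10 were higher and 1 of the 18 was lower, against 5.85% and 6.47%.

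**Figure D4:**
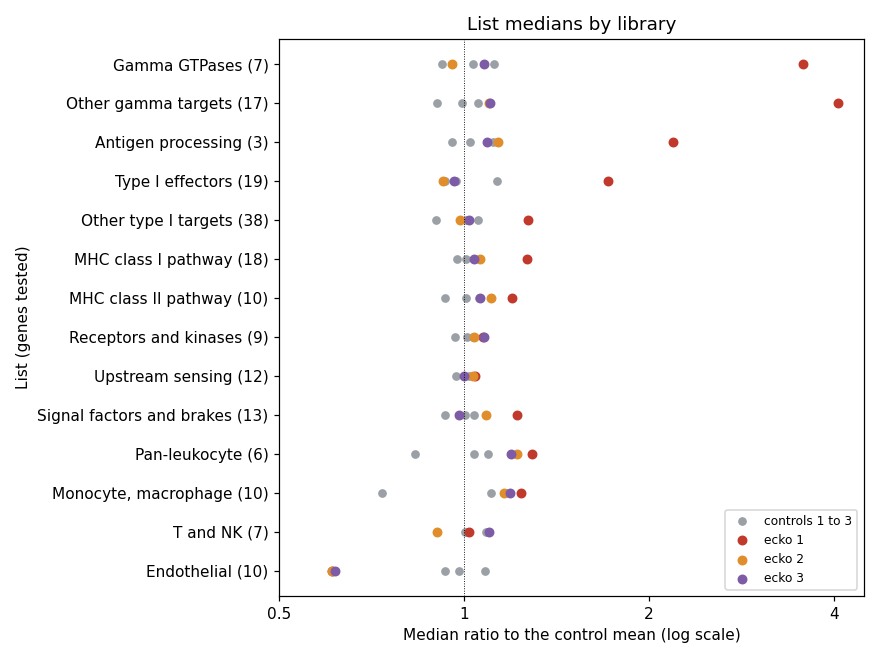
Median ratio of CPM to the control mean (log axis) over the tested genes of each list, with the number of genes in brackets, for the 3 controls (grey) and ecko 1 (red), ecko 2 (orange) and ecko 3 (purple). Ecko 1 stands apart at 3.56 times for the gamma GTPases and 4.07 times for other gamma targets, while for receptors, upstream sensing, T and NK cells and endothelial genes it lies with the other ecko libraries.

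Markers of the cells that could make or answer interferon are given beside these results, and their part in them was not tested. In bulk skin, fewer cells of a type and less RNA per cell cannot be told apart. The 6 pan-leukocyte genes had a median of 1.29 times the control mean in ecko 1, 1.22 times in ecko 2 and 1.19 times in ecko 3, with a summed level of 245 to 330 CPM in controls and 350 to 370 CPM in ecko. The 10 monocyte and macrophage genes had medians of 1.24, 1.16 and 1.19 times, with control 1 lowest at 0.73 times, and summed levels of 541 to 804 CPM in controls and 833 to 855 CPM in ecko. Within that list Ccr2, the receptor of inflammatory monocytes, rose by a log2 fold change of 0.65 (SE 0.09, edgeR adjusted p = 0.00907), from 20.9, 23.6 and 26.3 CPM to 35.7, 38.2 and 37.2 CPM, a call lost without ecko 2 (adjusted p = 0.0627). Ly6c2, another marker of those monocytes, had 0.17 CPM in each control and 2.72, 0.83 and 0.78 CPM in ecko 1 to 3 (edgeR adjusted p = 0.0600). It was weakly counted, at 3.03, 3.02 and 2.67 estimated reads in the controls and 46.89, 15.11 and 13.89 in ecko 1 to 3. These fractional estimates are less certain. With every control below the filter's minimum count of 10, Ly6c2 entered the edgeR test only through the ecko libraries. Its p-value is therefore no independent support for a rise. DESeq2 called Ly6c2 higher, and Ptprc and Cd52 among the pan-leukocyte genes, whose edgeR log2 fold changes were 0.39 and 0.49 (adjusted p = 0.114 and 0.0586).

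The 7 tested T and natural killer cell genes, from the main makers of interferon gamma, had a median of 1.02 times the control mean in ecko 1, 0.90 times in ecko 2 and 1.10 times in ecko 3. Their summed level, over the 11 in the table, was 31.7 to 37.3 CPM in controls and 34.4 to 36.6 CPM in ecko. The 4 untested genes were weakly counted. Cd8a had 5, 1 and 5 reads in the controls and 13, 7 and 3 reads in ecko 1 to 3, Gzmb 1, 2 and 5 reads against 10, 4 and 6 reads, Cd8b1 at most 3 reads in any library, with 0 in the controls and ecko 1, and Ncr1 at most 3 reads. Cd8a and Gzmb were highest in ecko 1, at 3.59 and 3.82 times the control mean. Of the 7 tested genes 0 were highest in ecko 1, and 3 had a log2 fold change above 0 and 4 below. Cd3d was below every control in all 3 ecko libraries, at 0.79, 0.66 and 0.69 times the control mean (edgeR adjusted p = 0.219). The 5 tested plasmacytoid dendritic cell genes, from cells that make much interferon alpha, had medians of 0.98, 1.00 and 1.08 times, and their summed level was 192 to 197 CPM in controls and 188 to 199 CPM in ecko. The 4 tested neutrophil genes had medians of 2.76 times in ecko 1, 4.21 times in ecko 2 and 1.03 times in ecko 3. S100a8 and S100a9, which keratinocytes can also make, were highest in ecko 2. They were 6.92 and 6.82 times the control mean there and 3.31 and 4.08 times in ecko 1. Cxcr2, which DESeq2 called higher, and Csf3r were highest in ecko 1. They were 2.21 and 2.09 times the control mean there and 1.60 and 1.5 times in ecko 2. The 4 untested neutrophil genes had few reads, and Ly6g had 0 in all libraries but ecko 3, which had 2.

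Endothelial and keratinocyte genes are given as the main tissue markers. The 10 endothelial genes had medians of 0.61, 0.61 and 0.61 times in ecko 1 to 3, and the 8 keratinocyte genes 1.08, 1.08 and 1.10 times. EdgeR called 8 of the 10 endothelial genes lower, against 1.08% of all genes. The summed level of the keratinocyte genes, the check of the labelled tissue, was 25567 to 27465 CPM in controls and 31576, 29025 and 28771 CPM in ecko 1 to 3. Among them Krt1, a keratin of differentiating epidermis, was called higher by edgeR, DESeq2 and limma-voom, at 1729, 2012 and 2342 CPM in the controls and 4148, 3124 and 3014 CPM in ecko 1 to 3 (log2 fold change 0.76, SE 0.15, edgeR adjusted p = 0.0376). That call was lost in male libraries only (adjusted p = 0.0541), with the replicate block (0.0684) and without any single library other than control 3 (0.0689 to 0.133).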

How the data were processed

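RNA was measured by sequencing in 3 control and 3 ecko samples of ear skin, grouped by the genotype in the sample titles. Poly(A) RNA was enriched and copied from random primers, per the labels' protocols, which name no step that keeps the strand. The deposited table gives unscaled expected counts (estimated read counts per gene and library), per the file headers. HISAT2 2.2.1, Bowtie2 2.4.5, RSEM 1.3.1 and GRCm38.p6 are named in the submitters' processing notes, and 10.5% of the values were not whole.

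Counts were rounded, filtered with filterByExpr (minimum count 10) and scaled by TMM, which left 14866 of 18422 genes. The test was edgeR 4.0.16 (glmQLFit and glmQLFTest, R 4.3.3) with genotype as the only term and Benjamini-Hochberg adjustment at 0.05. CPM used the scaled totals. Replicates differed by 5.11 to 15.6 times the sampling variance, so none was the same library of its group sequenced again. Whether libraries of a group came from the same mouse cannot be told from these values. On 5 simulated sets of this comparison (on average 14796 genes), recovery by the test was 62.4% at a true log2 change of 0.5, 94.3% at 1 and 100% at 2. These changes were set alike in every ecko library and only in well-counted genes. The rates therefore do not apply to a change in a single library or to weakly counted genes.

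The genes and lists were chosen with earlier results of these data known. Values in every library are printed, within each role, for the genes among the 4 highest mean counts, the 3 smallest p or the 4 largest ratios of the highest library to the median. From each pathway list the called genes, or else up to 3 with the smallest p, are named, with every interferon receptor and every interferon with reads. Genes called by DESeq2 alone, named marker genes, Gbp4, Ifi47, Gm12250 and the genes of the closing paragraph were chosen after their values were seen. Some genes of the lists are not reported here.

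Alternatives were DESeq2 1.42.0, limma-voom (limma 3.58.1), RLE and upper-quartile factors, a minimum total count of 1 or of 1 CPM in 3 libraries in place of filterByExpr, a sex term, the 4 male libraries only, the replicate number as a block and each library left out in turn.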

Additional observations from a re-analysis of the deposited data

How the results depend on the processing

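None of the 41 genes was called by edgeR or limma-voom under the alternatives run, and DESeq2 called 1, Ifit2. Of 614 gene values over 15 settings, 576 kept their direction and side of the threshold, 1 passed it and 37 changed sign, 20 of them without ecko 1. Over all genes, DESeq2 called 195 higher, the replicate block 63, and leaving out 1 library 22 (without ecko 2) to 165 (without control 3). Lower calls were 91 in male libraries only and 34 (without ecko 2) to 242 (without control 3) with 1 library left out. Those left-out fits have fewer samples, and the cause of the other shifts was not tested. Deviations of same-number libraries correlated at 0.05, 0.05 and 0.17, and those of different numbers between -0.1 and 0.06. Control 3 and ecko 3 were also the female libraries. Whether replicate numbers pair the samples cannot be told from such weak correlations. The replicate block ended the calls of Nos2, Slfn5 and Krt1 given above and made no call among the 41 genes.

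The median log2 fold change of the GTPase and antigen-processing genes ranged from 0.05 without ecko 1 to 0.97 without ecko 2. Ifit3 changed sign around 0, at -0.00 with the 1 CPM filter or the sex term, -0.03 with limma-voom and -0.02 with the replicate block or upper-quartile factors. In male libraries only, Cmpk2 was 0.01, Ddx58 0.05, Ifnar1 0.02, Ifnar2 0.08 and Ifngr2 0.09, and Ifngr2 was 0.00 without a filter.

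With each library left out in turn, these log2 fold changes crossed 0, with the lowest value without ecko 1 unless another is named. Among effectors, Ifit1 ranged from -0.08 to 1.26, Ifit3 from -0.23 to 0.15, Isg15 from -0.30 to 1.45, Rsad2 from -0.28 to 0.75, Oas2 from -0.12 to 0.26, Oasl2 from -0.14 to 1.17, Usp18 from -0.20 to 0.56, Ifi44 from -0.13 to 0.63, Ifi35 from -0.14 (without control 3) to 0.07, Bst2 from -0.07 to 0.26, Xaf1 from -0.37 to 0.31, Cmpk2 from -0.20 to 0.10 and Eif2ak2 from -0.01 to 0.20. Among sensors and factors, Ddx58 ranged from -0.11 to 0.03, Dhx58 from -0.01 to 0.38, Zbp1 from -0.06 to 1.17, Irf7 from -0.04 to 0.39, Irf9 from -0.01 to 0.36 and Stat2 from -0.07 to 0.34. Among GTPases and antigen-processing genes, Gbp3 ranged from -0.14 to 0.83, Irgm1 from -0.09 to 0.92, Iigp1 from -0.16 to 2.04 and Tap1 from -0.09 to 0.58. Gbp9 ranged from -0.15 to 0.35, Dusp1 from -0.12 to 0.54, Ifngr2 from -0.06 to 0.08, and, lowest without control 1, Ifnar1 from -0.09 to 0.01 and Ifnar2 from -0.09 to 0.04.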

Other observations

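Of the 48 genes that were at least 2 times higher in ecko 1 than in any other library, 14 were among the 41, 16 were on the lists of other pathway genes and 18 were on neither. The 16 included Ifi47, an immunity-related GTPase with 3.12, 5.46 and 4.25 CPM in the controls and 22.5, 6.14 and 5.20 CPM in ecko 1 to 3, and Gm12250 with 0.46, 1.02 and 0.79 CPM against 9.56, 1.49 and 1.45 CPM. Gbp4, a guanylate-binding protein, had 9.06, 7.57 and 9.58 CPM in the controls and 31.1, 10.0 and 8.05 CPM in ecko 1 to 3. Gbp9 was an exception in the family, at 15.2, 13.7 and 14.7 CPM in the controls and 22.9, 12.1 and 14.2 CPM in ecko 1 to 3.

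The genes named from the other 18 were chosen after their values were seen. Fcgr4, an activating antibody receptor, had 0.12, 0.74 and 0.62 CPM in the controls and 3.59, 0.61 and 0.50 CPM in ecko 1 to 3. Slamf8 had 1.15, 1.54 and 1.36 CPM against 4.87, 1.66 and 1.45 CPM, and Ccl7, a chemokine for monocytes, had 3.81, 4.15 and 5.39 CPM against 13.2, 5.59 and 5.03 CPM.

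The early response gene Fos was also among the 18, at 19.2, 35.5 and 34.1 CPM in the controls and 211, 53.0 and 33.4 CPM in ecko 1 to 3. Of genes with a similar known role, which were also chosen after their values were seen, Egr1 was at 49.9, 82.2 and 85.2 CPM against 304, 161 and 96.0 CPM and Dusp1 was at 54.2, 79.2 and 79.6 CPM against 140.4, 67.0 and 63.8 CPM. Fosb, at 78.3 CPM in ecko 1, lay between 11.4 and 45.3 CPM in the other libraries. EdgeR adjusted p-values of these 4 genes lay between 0.108 and 0.621, and whether their height in ecko 1 is tied to that of the interferon-stimulated genes was not tested.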
